A study of Homo sapiens with 38 samples.

Results

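The 48 listed genes lie on the long arm of human chromosome 3 (3q) and were chosen from these same data as a region higher in 16R6-4 cells than in A375 cells. Of them, 46 were measured here by a probe set that names the gene alone, among 18063 genes measured in all. The other 2, PIK3CA and SENP2, were not analysed here. A375 is a human melanoma cell line that carries an activating BRAF mutation, and 16R6-4 is a single A375-derived clone resistant to GSK2118436. Both lines had been exposed for 24 h before RNA was taken for one-colour Affymetrix arrays, 20 of 16R6-4 and 18 of A375. The treatments were the vehicle DMSO, GSK2118436 (GSK436, the RAF inhibitor dabrafenib) at 0.1 or 1 µM, GSK1120212 (GSK212, the MEK inhibitor trametinib) at 10 or 30 nM, and 10 nM GSK212 together with 0.1 or 1 µM GSK436. The 30 nM dose stands in the sample labels but not in the design text of the series. 16R6-4 gave 2 arrays with DMSO and 3 with each of the other 6 treatments. A375 gave 3 arrays each with DMSO, 10 nM GSK212 and both combinations, and 2 each with 0.1 µM GSK436, 1 µM GSK436 and 30 nM GSK212. Separate cultures behind the arrays of a group are not stated, so p-values measure only the spread between these arrays.

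Gains of 3q are frequent in human cancers, above all in squamous tumours of the lung, head and neck and cervix, and the arm holds growth-related genes such as the atypical protein kinase C gene PRKCI, the translation factor gene EIF5A2 and SMAD regulator SKIL. When a chromosome arm is gained, the RNA of its expressed genes tends to rise together, whatever the function of each gene. DNA copy number was not analysed here, and the arrays measure RNA only.

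A line difference is the mean of log2(signal + 2.8) in 16R6-4 minus that in A375 within a treatment, with its standard error (SE) from a linear model over all 38 arrays. Because this contrast chose the genes, line differences of the 46 genes are descriptions with no test. Averaged over the 7 treatments, 42 of the 46 genes were higher in 16R6-4 and 4 were lower. The values ran from -1.34 to 1.87 with a median of 0.74, and their SD over genes was 0.59. The quartiles of the list were 0.45 and 1.11, and 14 genes were higher by at least 1, a doubling of signal, as were 4.29% of all genes. Over all 18063 genes the median was -0.25 and 34.4% were higher in 16R6-4. Genes of high signal are a closer comparison, since 42 of the 46 genes belonged to the 7225 bright genes, those at or above the 60th percentile of mean signal (7.25 on the log2 scale). This cutoff was chosen after seeing the data. The median line difference of the bright genes was 0.06. With each array centred on its median the median of the 46 genes was 1.14 and that of all genes 0.15.

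Within treatments the 46 genes kept a higher median than all genes. With DMSO their median line difference was 0.51 against -0.10 for all genes, and 44 were above 0. In 31 of the 46, every 16R6-4 array with DMSO lay above every A375 array, as in 12.9% of all genes. With 0.1 µM GSK436 the median was 0.90 against -0.34 for all genes, and 31 genes had all 16R6-4 arrays above all A375 arrays, as in 16.3% of all genes. With 1 µM GSK436 it was 1.03 against -0.46, and 38 genes separated this way, as in 23% of all. With 10 nM GSK212 it was 0.73 against -0.07 and 31 genes separated, against 14.7% of all genes. With 30 nM GSK212 it was 0.57 against -0.09 and 23 genes separated, against 14.3%. The combination with 0.1 µM GSK436 gave 0.61 against -0.09 and 30 genes, against 14.3%, and that with 1 µM GSK436 gave 0.77 against -0.22 and 35 genes, against 18.3%. Since the line difference chose the genes, nothing is read from these counts. Line differences of single genes were widest apart with GSK436 alone, from -1.14 to 3.53 at 0.1 µM and from -1.38 to 3.15 at 1 µM.

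**Figure D1:**
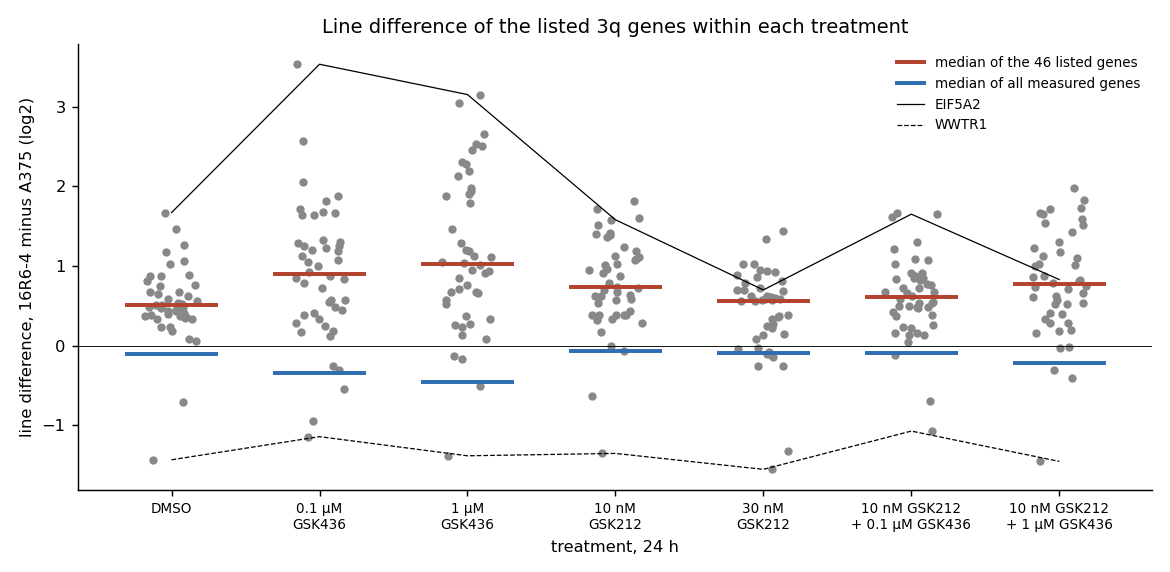
Line difference (16R6-4 minus A375, log2, vertical axis) of the 46 listed 3q genes in each treatment (horizontal axis). Grey points are genes, red bars the median of the 46 and blue bars the median of all 18063 genes, and lines follow EIF5A2 and WWTR1. The red bars lie between 0.51 and 1.03 and the blue bars between -0.46 and -0.07.

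RNA length differed between groups. The ratio of 3' to 5' actin control probe sets, higher where RNA is shorter, lay between 3.72 and 45, and it exceeded 20 on 6 arrays of 16R6-4 and 9 of A375. Its mean was 5.47 in 16R6-4 and 7.76 in A375 with DMSO. With 0.1 µM GSK436 it was 19.9 in 16R6-4 and 37.3 in A375, and with 1 µM GSK436 10.9 in 16R6-4 and 27.9 in A375. With 10 nM GSK212 it was 22.7 in 16R6-4 and 17.8 in A375, and with 30 nM 20.7 in 16R6-4 and 20.9 in A375. In the combination with 0.1 µM GSK436 it was 20.9 in 16R6-4 and 10.7 in A375, and with 1 µM 8.16 in 16R6-4 and 22.2 in A375. In 8 of the 14 groups the array with the highest ratio also had the lowest median signal of the 46 genes, and in the other 6 it did not. Replicate 1 of 16R6-4 with 10 nM GSK212 had the highest ratio of its group, 27.4, and the highest median, 10.23 on the log2 scale. Replicate 3 of 16R6-4 with 0.1 µM GSK436 had a ratio of 37.4 and a median of 9.46, against 10.07 and 10.00 on the other arrays of its group. Replicate 3 of A375 with DMSO had a ratio of 12 and a median of 9.25, against 9.76 and 9.65. The median line difference of the 46 genes was 0.68 with the log2 ratio as a covariate and 0.62 over the 5 treatments without GSK436 alone. It was 0.59 over the 23 arrays with a ratio of at most 20. These arrays also covered only those 5 treatments in both lines, since every A375 array with GSK436 alone exceeded 20.

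Defining markers were checked in both lines. Of 7 measured melanocyte and melanoma markers (MITF, MLANA, PMEL, TYR, SOX10, S100A1 and S100B), MITF had a median signal of 1235 in 16R6-4 and 430.3 in A375. SOX10, the neural crest factor, was at 3.915 in 16R6-4 and 875.2 in A375. MLANA, PMEL, TYR, S100A1 and S100B had low medians, under 60 in both lines, with S100B at 2.34 in 16R6-4 and 59.65 in A375. Line differences averaged over treatments were 1.43 for MITF, -6.81 for SOX10, -2.91 for S100B and -1.58 for S100A1. They were -1.22 for PMEL, -0.52 for MLANA and -0.46 for TYR. The summed signal of the 7 ran from 977.5 to 1741 in 16R6-4 and from 983 to 2095 in A375. The 4 epithelial markers EPCAM, CDH1, KRT8 and KRT18 summed to 7442 to 13780 in 16R6-4 and 2418 to 8702 in A375, nearly all of it from KRT8 and KRT18, while CDH1 had medians of 3.385 in 16R6-4 and 8.925 in A375. The 3 measured leukocyte markers summed to at most 123.2 in 16R6-4 and 179.9 in A375, and the 4 fibroblast markers to at most 475.5 in 16R6-4 and 712.3 in A375. The part of these markers in the results on 3q was not tested.

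Among the genes of translation and protein entry into the endoplasmic reticulum stood the largest line difference of the list. EIF5A2, a second form of the translation factor eIF5A, had signals of 417.5 and 463 in 16R6-4 with DMSO, against 146.1, 126 and 137.5 in A375 with DMSO. Over all treatments it ran from 92.3 to 519.9 with a median of 210 in 16R6-4, and from 26.33 to 146.1 with a median of 57.2 in A375. Arrays of the lines did not overlap within DMSO but did across treatments. Its line difference was 1.87 ± 0.10 (SE), a ratio of 3.664, and was positive in each of the 7 treatments. SSR3, a subunit of the complex that assists protein translocation, had 7009 and 6522 in 16R6-4 and 2443, 2484 and 2411 in A375 with DMSO. Its lowest 16R6-4 array of any treatment, at 2965, lay above its highest A375 array, at 2484, and its line difference was 1.37 ± 0.06. EIF4G1, the scaffold of the cap-binding complex, had 1577 and 1343 in 16R6-4 and 1021, 1110 and 1107 in A375 with DMSO, and a line difference of 0.58 ± 0.07. Over all arrays it ran from 1213 to 1776 with a median of 1441 in 16R6-4 and from 572 to 1320 with a median of 1035 in A375, so the lines overlapped. The other probe set of EIF4G1, of lower signal, gave 0.20. The remaining genes of this role were the initiation factor EIF2A (0.73), the mitochondrial elongation factor GFM1 (0.95), the mitochondrial ribosome protein MRPL47 (0.77) and the translocation protein SEC62 (0.51).

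The promoters of EIF5A2 and WWTR1 are shown because these genes had the highest and the lowest line difference of the list and were the members that fell with drug in both lines. Each window of 300 bases runs from 250 before to 50 after the start that RefSeq gives (GRCh38.p14), both on the minus strand. EIF5A2 lies at chr3:170908588-170908887 and WWTR1 at chr3:149703224-149703523. Capitals mark matches on either strand to the ETS motif CCGGAAG or the E-box CACGTG.
EIF5A2: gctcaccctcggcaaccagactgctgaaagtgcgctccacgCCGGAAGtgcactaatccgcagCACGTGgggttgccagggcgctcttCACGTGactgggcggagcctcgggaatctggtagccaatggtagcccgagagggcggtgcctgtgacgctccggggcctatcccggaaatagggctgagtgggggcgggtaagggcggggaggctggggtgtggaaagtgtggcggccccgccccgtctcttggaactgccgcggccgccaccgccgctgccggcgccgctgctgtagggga
WWTR1: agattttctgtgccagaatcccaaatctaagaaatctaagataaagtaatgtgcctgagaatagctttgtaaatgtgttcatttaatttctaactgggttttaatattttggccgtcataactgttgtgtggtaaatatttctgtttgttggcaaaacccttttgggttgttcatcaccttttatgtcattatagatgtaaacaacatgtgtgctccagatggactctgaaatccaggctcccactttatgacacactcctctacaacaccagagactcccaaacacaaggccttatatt
The EIF5A2 window held 1 ETS match and 2 E-boxes, and the WWTR1 window held none of the 5 motifs searched. RefSeq's table held a promoter for 41 of the 46 genes. The ETS letters were found in 9 of these (22%) and in 10.7% of all 27305 promoters, and the E-box in 9 (22%) and in 7.43% of all. The TEAD letters GGAATG were found in 7 (17.1%) and in 14% of all, the AP-1 letters TGANTCA in 1 (2.44%) and in 7.76% of all, and the E2F letters TTTNGCGC in 0 and in 1.83% of all. The AP-1 and E-box letters read the same on both strands apart from N, and no motif contains another. A match is a description of the letters only.

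Signalling genes ranged from PDCD10 at 1.42 to WWTR1, the lowest of the list. SIAH2, a ubiquitin ligase, had 273.7 and 379.6 in 16R6-4 and 157.5, 190.8 and 95.26 in A375 with DMSO, and its line difference was 1.41 ± 0.16. Over all arrays it ran from 69.35 to 379.6 with a median of 220.7 in 16R6-4, and from 44.04 to 190.8 with a median of 72.7 in A375. PDCD10, a partner of GCKIII kinases also known as CCM3, had 1484 and 3148 in 16R6-4 against 1546, 2599 and 781.9 in A375 with DMSO. These arrays overlapped, and the line difference averaged 1.42 ± 0.18 over treatments but was 0.56 with DMSO. Its signal ran from 735.1 to 3862 with a median of 2501 in 16R6-4, and from 344.2 to 2599 with a median of 823.2 in A375. RASA2, an activator of RAS GTPase activity, had 280 and 435.1 in 16R6-4 and 259.9, 260.7 and 149 in A375 with DMSO, and differed by 1.09 ± 0.15. It ran from 165.1 to 471.1 with a median of 325.9 in 16R6-4 and from 61.27 to 265.8 with a median of 141 in A375. Its 16R6-4 arrays with DMSO lay above those of A375 by little, the nearest at 280 and 260.7. The other probe sets of RASA2, of lower signal, gave 0.04 and -0.17, so its line difference rests on the probe set used.

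PRKCI, a kinase of the cell polarity complex, had 1905 and 1799 in 16R6-4 and 1146, 1131 and 896.5 in A375 with DMSO. It ran from 1141 to 1905 with a median of 1556 in 16R6-4 and from 674.4 to 1146 with a median of 833.5 in A375, so that the lines met only at their ends. Its line difference was 0.85 ± 0.06. The orphan receptor GPR160 (1.35), the small GTPase RAP2B (0.75) and the neddylation factor DCUN1D1 (0.57) were higher in 16R6-4 in every treatment.

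For 4 genes the average line difference was below 0, against the name the list goes by. WWTR1, the Hippo pathway coactivator TAZ, had 1682 and 1948 in 16R6-4 and 4597, 4340 and 5773 in A375 with DMSO. Its signal ran from 763.9 to 2159 with a median of 1230 in 16R6-4, and from 1808 to 5773 with a median of 2989 in A375. It was lower in 16R6-4 in all 7 treatments, by -1.34 ± 0.07 on average, and its 3 probe sets gave -1.34, -1.10 and -0.44. SKIL, the SMAD inhibitor SnoN, had 162 and 187.9 in 16R6-4 and 338.5, 343 and 204.2 in A375 with DMSO. It ran from 109.4 to 323.7 with a median of 225.6 in 16R6-4 and from 157.9 to 608.3 with a median of 338 in A375. Its line difference was -0.60 ± 0.12, and its 4 probe sets gave -0.60, -1.56, -0.46 and -0.94, all below 0. RSRC1, a serine and arginine rich splicing protein, had 466.7 and 435.2 in 16R6-4 and 439.3, 371.3 and 496.1 in A375 with DMSO, and -0.15 ± 0.08 on average. It ran from 346 to 647.2 with a median of 455 in 16R6-4 and from 369.4 to 655.3 with a median of 503.6 in A375, which overlap almost wholly. Its 3 probe sets gave -0.15, 0.58 and 0.05, so its sign rests on the probe set used, and their mean gave 0.16. ZMAT3, an RNA-binding target of p53, was at -0.03 ± 0.06 on average, but with DMSO it was 0.76, and it was below 0 in the other 6 treatments.

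**Figure D2:**
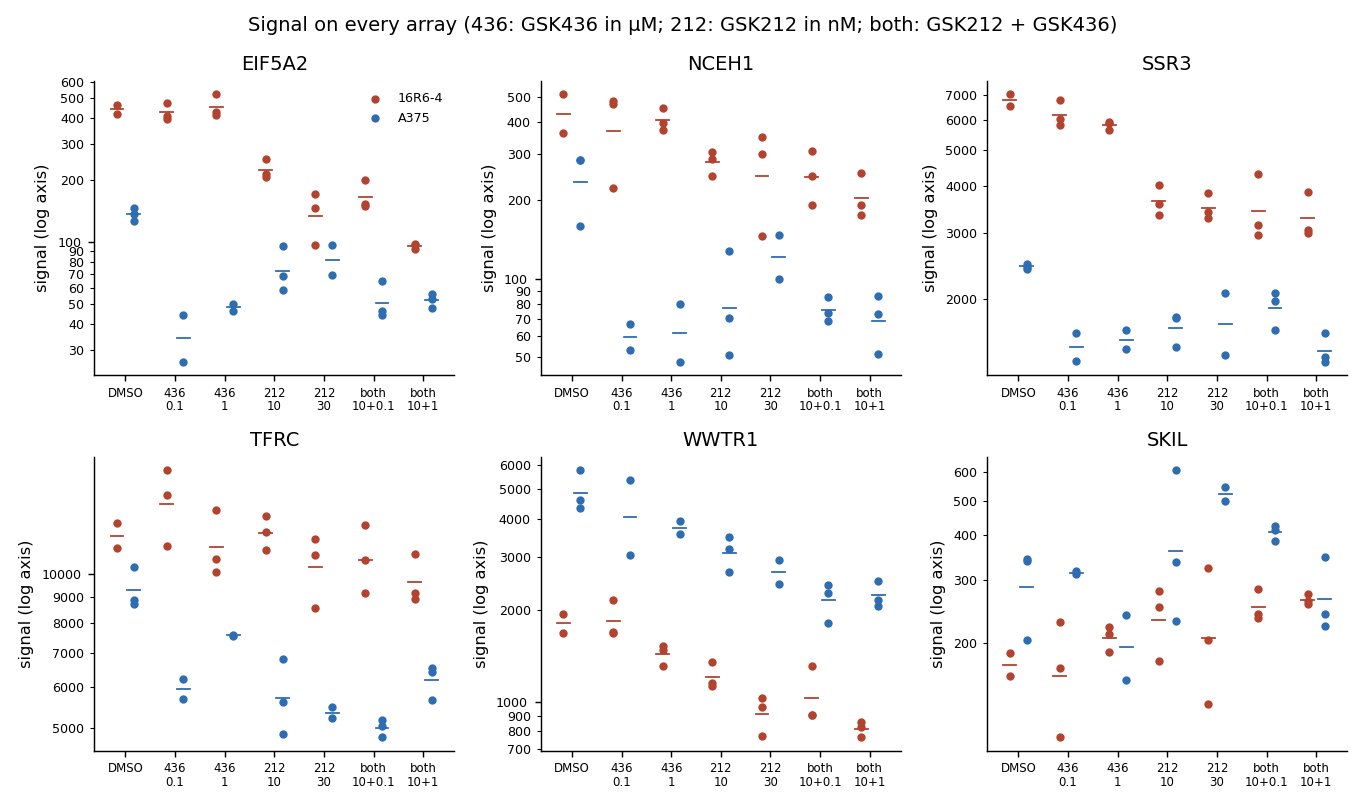
Signal (log axis) of 6 genes on every array by treatment, 16R6-4 in red left of A375 in blue, with bars at the geometric mean of a group. SSR3 arrays of 16R6-4 all lie above those of A375, between 2965 and 7009 against 1367 and 2484, while WWTR1 is lower in 16R6-4 in every treatment.

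Genes of chromatin and DNA maintenance were all higher on average in 16R6-4. ACTL6A, the BAF53A subunit of chromatin remodelling complexes, differed by 1.37, SMC4, a core subunit of condensin, by 1.11, and YEATS2, a subunit of a histone acetyltransferase complex, by 0.96. For YEATS2 the lowest 16R6-4 array (249.2) lay above the highest A375 array (230.8) over all treatments. TBL1XR1, a corepressor exchange factor, differed by 0.52 and the polycomb protein PHC3 by 0.49. The further probe sets of TBL1XR1, of lower signal, ran from -0.29 to 1.35. ATR, the kinase that signals replication stress, had 943.8 and 1076 in 16R6-4 and 898.8, 785.2 and 630.1 in A375 with DMSO. It ran from 862.8 to 1443 with a median of 1144 in 16R6-4 and from 630.1 to 1303 with a median of 937.8 in A375, and its line difference of 0.28 ± 0.07 was among the smaller ones above 0. For SMC4 and ACTL6A the difference was smaller with DMSO (0.23 for SMC4 and 0.51 for ACTL6A) than with 1 µM GSK436 (2.30 for SMC4 and 2.28 for ACTL6A).

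Among RNA-binding and splicing genes CNBP, a zinc finger protein of nucleic acids, differed by 1.24, cyclin L1 CCNL1 by 0.73 and U2SURP, a protein of the U2 splicing particle, by 0.60. FXR1, a relative of the fragile X protein, differed by 0.43 and the splicing regulator MBNL1 by 0.15. The further probe sets of FXR1, of lower signal, ran from -0.17 to 0.92. MBNL1 was below 0 in 2 of the 7 treatments, and its 16R6-4 and A375 arrays overlapped.

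Genes of membranes, transport and metabolism were all higher on average. NCEH1, which hydrolyses cholesterol esters, had 362.5 and 509.6 in 16R6-4 and 284.4, 285 and 159 in A375 with DMSO. It ran from 145.8 to 509.6 with a median of 304 in 16R6-4 and from 48.09 to 285 with a median of 76.83 in A375, and differed by 1.73 ± 0.13, the second highest value of the list. TFRC, the transferrin receptor and the last of the genes along the arm, had 12570 and 11190 in 16R6-4 and 8878, 8730 and 10320 in A375 with DMSO. Its signal ran from 8564 to 15910 with a median of 11160 in 16R6-4 and from 4796 to 10320 with a median of 5964 in A375, a line difference of 0.84 ± 0.06 with some overlap across treatments. Heme synthesis enzyme CPOX differed by 1.10, the protein import factor DNAJC19 by 1.18, the Golgi protein GOLIM4 by 1.00, the phospholipid flippase ATP11B by 0.88 and the nuclear import receptor KPNA4 by 0.83. The mitochondrial protease PARL (0.65), the Notch glucosyltransferase POGLUT1 (0.61), the transporters MFSD1 (0.46) and ABCC5 (0.45) and the mannosyltransferase ALG3 (0.24) followed. PARL arrays of 16R6-4, from 894.2 to 1172, all lay above those of A375, from 469.4 to 792.6. For GOLIM4 another probe set of nearly the same mean signal (8.84 against 8.96 on the log2 scale) gave -0.24. The further probe sets of ATP11B, of lower signal, ran from -0.11 to 0.46.

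TSC22D2, a member of the TSC22 family, had 2592 and 2055 in 16R6-4 and 1042, 963.8 and 886 in A375 with DMSO. Over all arrays it ran from 1772 to 4215 with a median of 3165 in 16R6-4 and from 811.8 to 1390 with a median of 1030 in A375, with no overlap, and its line difference was 1.45 ± 0.06. It was with SSR3, YEATS2 and PARL one of the 4 genes whose 16R6-4 arrays all lay above all A375 arrays. LRRC58, a leucine-rich repeat protein, differed by 1.30, MLF1 by 0.36, the neuronal serpin SERPINI1 by 0.30 and the zinc finger protein MYNN by 0.27. SERPINI1 had low signal, from 21.94 to 75.15 in 16R6-4 and from 9.32 to 65.83 in A375, and its sign changed between treatments. In all, 35 of the 46 genes were above 0 in every treatment, WWTR1 was below 0 in every treatment, and 10 had mixed signs. The shares of all genes with such signs, or separating over all treatments as the 4 genes did, were not counted. As the line difference chose the genes, nothing is read from these counts.

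Other probe sets gave a lower picture than the brightest one. The 36 genes with further probe sets past the filter had 102 of them, of which 72 were above 0 with a median of 0.30. Of these 36 genes all probe sets were above 0 for 16, all below 0 for SKIL and WWTR1, and of both signs for 18. With all probe sets of a gene averaged, the median line difference of the 46 genes was 0.50.

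The rest of the arm was described in the order of RefSeq genes, with 3q taken from PROS1 to the end of the chromosome. The 501 other measured 3q genes had a median line difference of -0.03, and 238 were above 0. Among the 197 bright ones the median was 0.50 and 156 were above 0, against a median of 0.09 and 118 of 215 for bright genes of the short arm, 3p. With DMSO the bright other 3q genes had a median of 0.38 and 167 of 197 were above 0. Thus bright genes that were not listed were also mostly higher in 16R6-4, while the 501 as a whole were not. The median of all genes, -0.25, lay below that of the 501. With DMSO the 501 had a median of 0.18 and 297 were above 0, against a median of -0.10 for all genes. Genes of low signal were not compared with genes of like signal elsewhere. All the bright genes of 3q together, 239 with the listed ones, had a median of 0.55 and 81.2% above 0, the highest median among 24 chromosomes and arms. Chromosome 18 followed with 0.47 and 84% above 0, then chromosome 4 with 0.37 and chromosome 8 with 0.33, while chromosome 20 was lowest at -0.43. With DMSO alone 3q was also highest, at 0.41 against 0.33 for chromosome 18. As 3q was chosen for its line difference, this rank is a description.

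**Figure D3:**
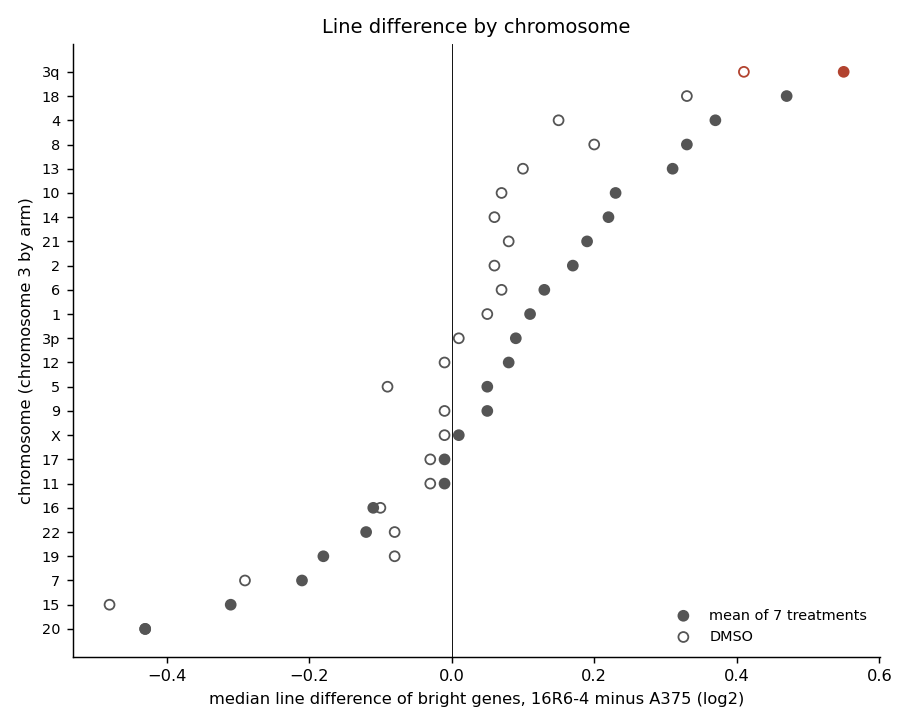
Median line difference of bright genes (16R6-4 minus A375, log2, horizontal axis) for each chromosome, chromosome 3 by arm (vertical axis), as filled points for the mean of 7 treatments and open points for DMSO. The 3q points, in red, are at 0.55 and 0.41, and chromosome 20 is at -0.43 in both.

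Along the arm the running median of 21 bright genes, with fewer genes in the window at the chromosome end, was above 0 at 237 of 239 positions. Its lowest value, -0.51, stood at LMLN, the last gene of the arm, and is the line difference of that gene alone. The highest was 1.00 near DCBLD2 at the near end, where the window reached into 3p. On 3p it was above 0 at 138 of 215 positions. The stretch from CPOX to CNBP held 73 other bright genes, of which 58 were above 0 with a median of 0.55. From RASA2 to WWTR1 all 14 other bright genes were above 0, with a median of 1.01, and from WWTR1 to SSR3 all 9, with a median of 0.71. WWTR1 thus lay between stretches whose other bright genes were higher in 16R6-4. Between PDCD10 and NCEH1, where 11 of 25 measured genes are listed, only 4 other bright genes were left, and 1 of them was above 0. From EIF4G1 to TFRC 16 of 20 other bright genes were above 0, with a median of 0.61.

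**Figure D4:**
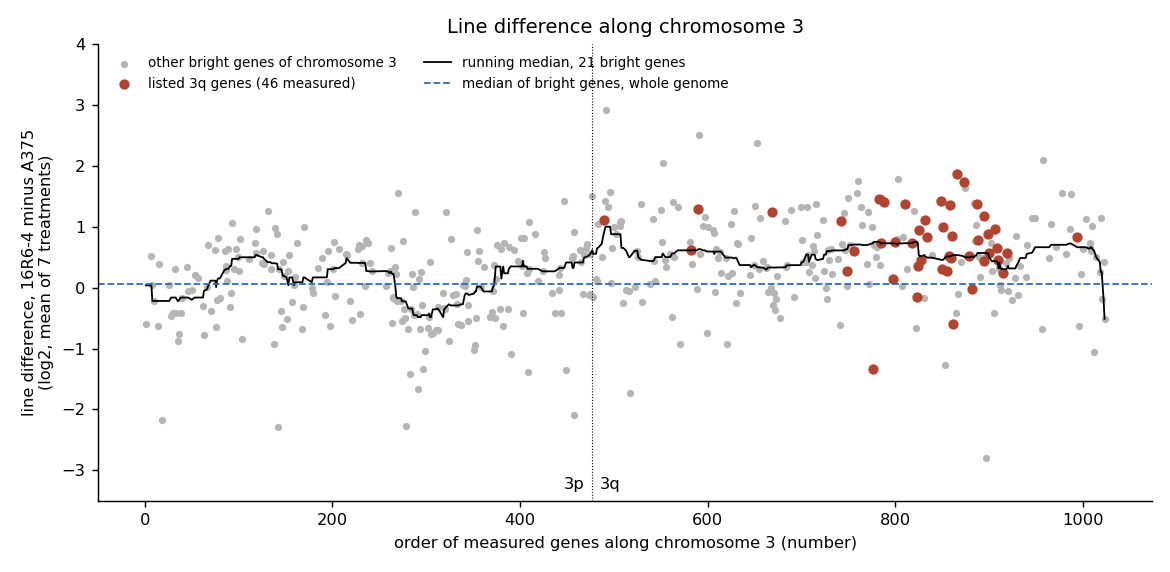
Line difference (16R6-4 minus A375, log2, mean of 7 treatments, vertical axis) of genes of chromosome 3 in gene order (horizontal axis). Red points are the 46 listed genes, grey points the other bright genes, the black line the running median of 21 bright genes and the dashed blue line the median of all bright genes, 0.06. On 3q the black line stays above 0 at 237 of 239 positions, its window holding fewer genes at the chromosome end. WWTR1 is the red point at -1.34.

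Drug responses were tested within a line with limma. The genes were chosen by the line difference within each treatment, so the same arrays entered the choice, and low A375 values with a drug favour both. The tests are therefore not independent of the choice, and the shares of all genes beside the counts are given with nothing read from them. A gene was called at a Benjamini-Hochberg adjusted p under 0.05 over all 18063 genes and a log2 fold change of 1 or more in either direction. The 6 comparisons of a line share its DMSO arrays, 2 in 16R6-4 and 3 in A375. In 16R6-4, 3 of the 46 genes were called in at least 1 comparison, EIF5A2, WWTR1 and SSR3, beside 7.94% of all genes called in either direction. In A375 it was 13 of 46, beside 31.8% of all genes. Every call was a fall. The difference between lines in these responses combines the contrasts that chose the genes, and it was not tested.

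In 16R6-4 GSK436 alone called none of the 46 genes. At 0.1 µM limma called 0 higher, beside 0.00554% of all genes, and 0 lower, beside 0%. For an unadjusted p under 0.05 limma gave 0 higher (3.66% of all genes) and 2 lower (0.692%). At 1 µM it called 0 higher, beside 0.072%, and 0 lower, beside 0.00554%. There were 0 in either direction at an unadjusted p under 0.05 (2.32% of all genes higher and 0.947% lower). The medians of the 46 genes were -0.09 and 0.04, and those of bright genes -0.02 and 0.00. With 10 nM GSK212 limma called 0 higher (2.15% of all genes) and 0 lower (0.615%). At an unadjusted p under 0.05 it gave 2 higher (10.9%) and 5 lower (4.55%), and with 30 nM 2 higher (12.6%) and 6 lower (6.32%). By the same measure the combination with 0.1 µM GSK436 gave 1 higher (13.6%) and 10 lower (6.54%). That with 1 µM gave 1 higher (14.2%) and 10 lower (7.97%). Of bright genes 1.02% were called lower with 10 nM GSK212 and 1.54% with 30 nM. The combinations called 1.84% of bright genes lower at 0.1 µM GSK436 and 2.85% at 1 µM.

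With 30 nM GSK212 EIF5A2 was lower in 16R6-4, the only call among 0 higher (3.37% of all genes) and 1 lower (0.941%). Its signals were 96.33, 170.4 and 146.9 with 30 nM GSK212 against 417.5 and 463 with DMSO, a log2 fold change of -1.69 ± 0.26 (adjusted p = 3.29e-05). With the combination at 0.1 µM GSK436 it was again the 1 gene called lower (1.03% of all), with 0 higher (3.83%), at 200.6, 149.6 and 152.6 and -1.39 ± 0.26 (adjusted p = 0.000478), a call lost with all probe sets averaged. With the combination at 1 µM, 3 genes were lower (1.69% of all) and 0 higher (4.83%). EIF5A2 had 97.96, 96.27 and 92.3 and fell by 2.17 ± 0.26 on the log2 scale (adjusted p = 2.68e-07). With GSK436 alone its signals, 397 to 519.9, lay about the DMSO arrays. SSR3 had 3868, 2994 and 3060 with this combination against 7009 and 6522 with DMSO, and fell by 1.04 ± 0.16 (adjusted p = 1.83e-05). That call was lost without DMSO replicate 1 or without replicate 2 or 3 of the combination. SSR3 lay just short of a fold change of 1 with the other treatments that held GSK212, at -0.89, -0.95 and -0.98. WWTR1 had 763.9, 860.1 and 824.5 with this combination against 1682 and 1948 with DMSO, and fell by 1.15 ± 0.20 (adjusted p = 7.18e-05).

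In A375, where the choice of genes favours falls with the drugs, with 0.1 µM GSK436 the median was -0.47, that of bright genes -0.11 and that of all genes 0.39, and 9 of the 46 were called lower, beside 6.39% of all genes and 13% of bright genes, with 0 higher, beside 11.4%. With 1 µM it was -0.51, against -0.10 and 0.39, and 11 were lower, beside 7.68% of all and 15.8% of bright genes, with 0 higher, beside 11.8%. With 10 nM GSK212 2 were lower (4.04% of all, 7.31% of bright genes) and 0 higher (7.68%). With 30 nM 0 were lower (3.42% of all, 6.31% of bright genes) and 0 higher (6.47%). The combination with 0.1 µM GSK436 gave 3 lower (3.63% of all, 6.34% of bright genes) and 0 higher (6.96%). That with 1 µM gave 7 lower (5.74% of all, 11.1% of bright genes) and 0 higher (11.2%). At an unadjusted p under 0.05, 3 of the 46 were higher with 0.1 µM GSK436 (24.2% of all genes) and 22 lower (15.1%), and with 1 µM 4 higher (23.9%) and 23 lower (16.2%). Alone, GSK212 at 10 nM gave 3 higher (18.3%) and 19 lower (12.8%), and at 30 nM 8 higher (16.2%) and 12 lower (11%). The combination with 0.1 µM GSK436 gave 3 higher (17.7%) and 15 lower (11.8%), and that with 1 µM 3 higher (24.2%) and 21 lower (15%). The A375 arrays with GSK436 alone all had actin ratios above 20. Without these 2 treatments 7 of the 46 genes were called in A375. Over the arrays with a ratio of at most 20, which also leave out these 2 treatments, 7 were called. With the log2 ratio as a covariate 9 were called, 2 of them at 0.1 µM GSK436. The part of RNA length in the count was not tested. Under each scaling tried the called genes of the list were all lower, 16 with quantile normalization and 36 with centring. Centring also moved the median of all genes in A375, to -0.43 with 0.1 µM GSK436 and -0.32 with 1 µM. The shares of all genes called under these scalings were not counted, so nothing is read from the 2 counts.

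**Figure D5:**
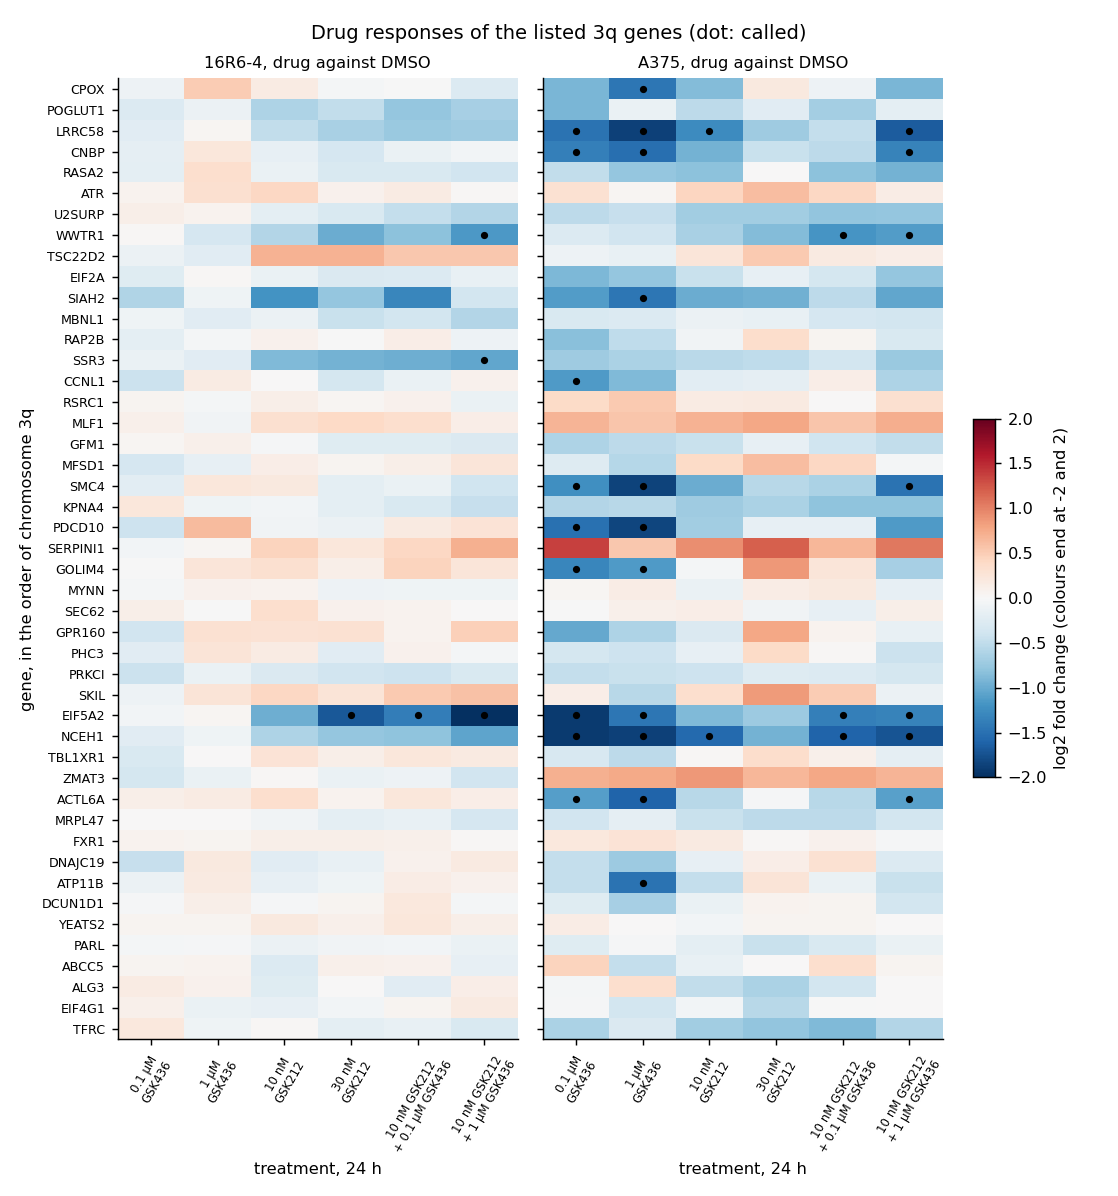
Log2 fold change of each drug treatment against DMSO (colour) for the 46 genes in the order of the arm (rows) in 16R6-4 (left) and A375 (right), with dots where a gene was called. Dots fall on 3 genes in 16R6-4 and on 13 in A375, all of them lower.

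In A375 NCEH1 was called in 5 comparisons, and EIF5A2 and LRRC58 in 4 each. NCEH1 had 53.29 and 66.95 with 0.1 µM GSK436 against 284.4, 285 and 159 with DMSO, and fell by 1.92 ± 0.37 on the log2 scale (adjusted p = 0.000205). It fell by 1.87 with 1 µM GSK436, by 1.56 with 10 nM GSK212, by 1.60 with the combination at 0.1 µM and by 1.73 at 1 µM, and was at -0.94 (adjusted p = 0.0805) with 30 nM GSK212. EIF5A2 had 44.31 and 26.33 with 0.1 µM GSK436 against 146.1, 126 and 137.5 with DMSO, and fell by 1.91 ± 0.26 (adjusted p = 2.11e-06). It was also lower with 1 µM GSK436 (-1.45) and with the combinations (-1.37 and -1.34). With all probe sets of a gene averaged, EIF5A2 was no longer called with GSK436 alone. LRRC58 had 262.4 and 241.8 with 1 µM GSK436 against 1142, 1129 and 603.3 with DMSO, and fell by 1.86 ± 0.36 (adjusted p = 0.000207). The averaged probe sets of LRRC58 gave no call for 0.1 or 1 µM GSK436 or the combination at 1 µM.

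SMC4 had 1064 and 597.8 with 1 µM GSK436 against 3370, 3318 and 2165 with DMSO, and fell by 1.85 ± 0.30 (adjusted p = 1.43e-05). ACTL6A had 335.8 and 237 with 1 µM against 1009, 1031 and 612.1, and fell by 1.60 ± 0.27 (adjusted p = 3.21e-05). Both were also lower with 0.1 µM GSK436 and the combination at 1 µM, though for ACTL6A these calls were lost with quantile normalization, with the actin covariate and without DMSO replicate 1 or 2. The SMC4 call at 0.1 µM was lost with the actin covariate (-0.87) and without replicate 2 of that dose (-0.91). Without that replicate the ACTL6A call at 0.1 µM was lost too (-0.72). CNBP had 1552 and 1117 with 1 µM against 4150, 4781 and 2694, and fell by 1.51 ± 0.31 (adjusted p = 0.000315). PDCD10 fell by 1.83 ± 0.50 with 1 µM (adjusted p = 0.00585) and ATP11B by 1.47 ± 0.31 (adjusted p = 0.000477). With all probe sets averaged ATP11B was at -0.07 and not called (adjusted p = 0.842). SIAH2 fell by 1.44 ± 0.46 (adjusted p = 0.0162) and CPOX by 1.44 ± 0.40 (adjusted p = 0.00664), and like PDCD10 they were not called with the actin covariate or without replicate 3 of that dose. The calls of PDCD10 and SIAH2 were also lost without DMSO replicate 2. GOLIM4 fell by 1.30 ± 0.41 with 0.1 µM (adjusted p = 0.0176), a call lost with the actin covariate, with all probe sets averaged and without single arrays. CCNL1, the last of the 13, was called at 0.1 µM alone and lost with the actin covariate. WWTR1 had 1808, 2282 and 2412 with the combination at 0.1 µM against 4597, 4340 and 5773 with DMSO, and fell by 1.18 ± 0.18 (adjusted p = 4.49e-06). With the combination at 1 µM it fell by 1.12 ± 0.18, a call lost with quantile normalization or without DMSO replicate 3.

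Some listed genes were higher with drug in A375 without being called. ZMAT3 was at 0.66 to 0.86 with the 6 treatments, each with an adjusted p under the threshold, and at -0.39 to 0.03 in 16R6-4. MLF1 was at 0.55 to 0.78 in A375, and at -0.07 to 0.40 in 16R6-4. SERPINI1 went past that size in A375 with 0.1 µM GSK436, at 1.37 ± 0.57, but with an adjusted p of 0.0707 in limma it was not called. TFRC was at -0.89 to -0.29 in A375 and at -0.30 to 0.21 in 16R6-4. PRKCI was at -0.47 to -0.26 in A375 and -0.43 to -0.14 in 16R6-4, with no adjusted p under the threshold. TSC22D2 reached 0.70 with both doses of GSK212 in 16R6-4 (adjusted p = 0.0155 and 0.0113).

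Genes elsewhere in the genome whose products bind those of the list, or resemble them, were tested for the line difference averaged over the 7 treatments. They were picked with earlier results of these data known. Of 51 listed partners 41 were measured, and 3 were called higher and 0 lower in 16R6-4 by limma, with 24 higher and 8 lower at an unadjusted p under 0.05. Their median was 0.22. Of 25 listed relatives 21 were measured, and 0 were called higher and 1 lower, with 10 and 8 at an unadjusted p under 0.05 and a median of -0.01. Of all genes 4.29% were called higher and 8.96% lower. The shares of all genes at that unadjusted p were not counted, so nothing is read from the unadjusted counts. The higher partners were NCAPH, which joins SMC4 in condensin (1.19 ± 0.13, adjusted p = 1.09e-09), TEAD1, a DNA-binding partner of WWTR1 (1.08 ± 0.06, adjusted p = 3.88e-16), and GRPEL1, which works beside DNAJC19 in mitochondrial protein import (1.09 ± 0.06, adjusted p = 8.36e-18). TEAD1 ran from 952.6 to 1949 in 16R6-4 and from 400.9 to 1324 in A375, GRPEL1 from 844.7 to 2028 in 16R6-4 and from 432.2 to 1407 in A375, and NCAPH from 100.9 to 461.4 in 16R6-4 and from 34.26 to 388.6 in A375, so each overlapped. With DMSO alone the line difference was 0.15 for NCAPH, 0.33 for TEAD1 and 0.57 for GRPEL1. The arrays with an actin ratio of at most 20 held none of A375 with GSK436 alone, so their average left out these treatments. Over them TEAD1 (0.90) and GRPEL1 (0.84) fell short of a log2 difference of 1. So did TEAD1 with quantile normalization (0.98) and with all probe sets averaged (0.71).

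The lower relative was TSC22D1, on chromosome 13, at -1.87 ± 0.05 (adjusted p = 3.47e-25). It ran from 687.2 to 894.1 with a median of 788.6 in 16R6-4, and from 1800 to 3973 with a median of 2868 in A375, with no overlap, the reverse of the order of its relative TSC22D2. YAP1, the coactivator related to WWTR1, was at 0.97 ± 0.14 (0.44 with DMSO), and EIF5A, the relative of EIF5A2, at 0.12 ± 0.05. Neither was called. The listed relatives that were not called ran from -0.98 (PRKCZ) to 0.90 (ATP11A). With all probe sets of a gene averaged TSC22D1 was not called.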

How the data were processed

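The authors deposited linear signal intensities of 54675 probe sets on 38 arrays, and the submitters' processing notes name MAS5. Every array had a trimmed mean of 150 and a median of 21.6 to 52.4. Precision is limited by the number of arrays. Genes were named by the platform annotation, and 41043 of 41097 probe sets naming 1 gene matched RefSeq (GRCh38.p14). Those with several genes (1801) or no gene (11777) were not used.

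Probe sets with at least 2 arrays above the pooled median of 34.88 were kept, and the brightest stood for each of 18063 genes. The limma fit (3.58.1, R 4.3.3) of 14 group means to log2(signal + 2.8), the 10th percentile, had 24 residual degrees of freedom and moderated variances with a trend. It was also run on simulated data with independent noise for each gene. These held no difference in RNA length between arrays, so nothing about RNA length is read from that run. Sequence tables and figures were made with Python 3.11.15.

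The members, lists and tests were chosen with earlier results of these data known. Values on every DMSO array were given for the 5 highest and 3 lowest members and for members with known roles. Up to 12 drug-responsive members a line, ranked by fold change, with CCNL1 as a further one in A375 named after its values were seen, called partners and relatives, and the extreme or called other 3q genes were named too. SSR3 and ZMAT3, among others, were described further after their values were seen. Same-numbered arrays did not deviate together from their group means (mean r of 0.004 over 224 pairs, against -0.002 for other pairs).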

Additional observations from a re-analysis of the deposited data

Results flagged for a closer look

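For several members every 16R6-4 array with a drug lay above the DMSO mean of its line and every A375 array below that of A375. Only members and treatments with a called drug response were searched. The members were chosen by the line difference within each treatment, which favours such opposite moves. The share of all genes that move this way was not counted. Nothing is read from these cases, and the difference was not tested. With 1 µM GSK436 the mean change on the log2 scale, over 3 arrays of 16R6-4 and 2 of A375, was 0.51 in 16R6-4 and -1.44 in A375 for CPOX, 0.22 in 16R6-4 and -1.51 in A375 for CNBP, and 0.22 in 16R6-4 and -1.85 in A375 for SMC4. It was 0.64 in 16R6-4 and -1.83 in A375 for PDCD10, 0.17 in 16R6-4 and -1.60 in A375 for ACTL6A, and 0.18 in 16R6-4 and -1.47 in A375 for ATP11B. With 10 nM GSK212 and 1 µM GSK436 it was 0.13 in 16R6-4 and -1.08 in A375 for ACTL6A, over 3 arrays each. None of these genes was called in 16R6-4 by limma, nor was any under an unadjusted p of 0.05. The 16R6-4 arrays with DMSO lay far apart for some, at 1484 and 3148 for PDCD10 and at 709.7 and 1217 for CPOX. The mean actin ratio of the arrays with 1 µM GSK436 was 10.9 in 16R6-4 and 27.9 in A375.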

How the results depend on the processing

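Under the 13 other settings run for it, 41 to 44 members were higher in 16R6-4, and 42 without each of 38 arrays. Centring each array on its median moved the members' median line difference to 1.14 over treatments, 0.77 with DMSO, 1.57 and 1.77 with 0.1 and 1 µM GSK436, and 0.90 and 1.29 with the combinations. The mean of all probe sets gave 0.50 over treatments, 0.53 and 0.75 with 0.1 and 1 µM GSK436, 0.34 with 30 nM GSK212, and 0.54 when 10 nM GSK212 was combined with 1 µM GSK436. Leaving out single arrays gave 0.72 to 0.78 over treatments, 0.39 to 0.64 with DMSO, 0.79 to 0.99 and 0.97 to 1.18 with 0.1 and 1 µM GSK436, 0.64 to 0.90 and 0.40 to 0.62 with 10 and 30 nM GSK212, and 0.48 to 0.71 and 0.73 to 0.82 with the combinations. Members called in 16R6-4 (3) became 6 with centring or no minimum fold change, and 5 with a filter at the 75th percentile, with only the groups compared, with array weights or without arrays of actin ratio above 20, and were 2 to 4 without single arrays. Members called in A375 (13) became 36 with centring, 30 with no minimum fold change, 7 without arrays of actin ratio above 20, and 9 to 17 without single arrays. In both lines centring also lowered the median response of all genes to each drug treatment. Members called in A375 with 0.1 µM GSK436 (9) were 4 without its replicate 2 and 5 without DMSO replicate 1 or 2, and without A375 1 µM GSK436 replicate 3 those at that dose were 7 in place of 11. With 10 nM GSK212 (2) they were 9 without its replicate 3, 7 without DMSO replicate 3 and 1 without its replicate 1, and with 30 nM (0) 1 without either of its arrays or DMSO replicate 3. In 16R6-4 they were 1 with 10 nM GSK212 (0) without its replicate 1 or 2. With 30 nM (1) they were 2 without its replicate 2 or DMSO replicate 1 and 3 without its replicate 3, and with the combination at 0.1 µM (1) 2 without its replicate 2 or DMSO replicate 2. Partners and relatives called higher (3) became 11 with centring, 26 with no minimum fold change, 1 without arrays of actin ratio above 20, and 3 to 4 without single arrays. Those called lower (1) became 0 with the mean of probe sets, 3 with array weights, 16 with no minimum fold change, and 1 to 3 without single arrays, 3 without A375 0.1 µM GSK436 replicate 3. With the replicate number as a block the members' median line difference was 0.76 and the counts of called members were 3 in 16R6-4 and 13 in A375, but 3 partners and relatives were called lower. Of 37 called drug responses 16 were kept under the other settings and 21 lost their call under at least 1, and none reversed. Leaving out the arrays of actin ratio above 20 also took out the A375 groups with GSK436 alone. The causes were not tested. Chosen after seeing the data were the bright genes, with a median of 0.73 for the members among them. So were the 5 treatments without GSK436 alone (0.62, and 7 members called in A375). So was leaving out A375 DMSO replicate 3 with the arrays of high ratio (9 called).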

Other observations

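Among the other 501 measured genes of 3q, the highest line differences averaged over treatments were COL8A1 (3.12 ± 0.26), a short-chain collagen, LINC00973 (2.92 ± 0.13), CSTA (2.88 ± 0.21), the protease inhibitor cystatin A, FSTL1 (2.51 ± 0.07), a secreted follistatin-like protein, and MGLL (2.37 ± 0.09), which degrades monoacylglycerols. The lowest were CD96 (-4.28 ± 0.11), an immunoglobulin family receptor, EPHB3 (-3.02 ± 0.29), an ephrin receptor, SOX2 (-2.79 ± 0.10), a transcription factor of stem cells, ROPN1 (-2.58 ± 0.27) and GAP43 (-2.52 ± 0.18), a growth cone protein. Of these 10, COL8A1, CSTA, CD96, EPHB3, ROPN1 and GAP43 were not among the bright genes. With DMSO alone LINC00973 was at 1.20, EPHB3 at -0.79 and ROPN1 at -1.07. SOX2 was at -0.56 with DMSO and at a median signal of 63.78 in 16R6-4 and 451.2 in A375 over all arrays.

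Of 30 further 3q genes, taken for a role in cancer or a relation to a member, 28 were measured. With a line difference of at least 1 in size, ETV5 (2.04), an ERK-responsive ETS factor, ECT2 (1.64), an exchange factor of cytokinesis, MCM2 (1.34), a replication helicase subunit, and ATP1B3 (1.22), a sodium pump subunit, were higher in 16R6-4. SOX2 (-2.79), HES1 (-1.85), the Notch target, CBLB (-1.73), a ubiquitin ligase, MECOM (-1.27), a zinc finger transcription factor, and EPHB1 (-1.20) were lower. The median of the 28 was 0.30. With DMSO alone ETV5 was at 0.10, ECT2 at 0.49, MCM2 at 0.29 and MECOM at 0.56. As genes of the chosen region these values are descriptions.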
